A study of Mus musculus with 12 samples.

Results

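The immunity-related GTPases described here are the 7 mouse genes Irgm1, Irgm2, Igtp, Iigp1, Ifi47, Tgtp1 and Tgtp2. They were chosen by symbol and matched to the Ensembl identifiers of the count table through a GENCODE annotation of GRCm38. They are 7 of the 48526 genes in the table, and all 7 were among the 15523 genes that passed the filter on low counts. The libraries were made from the total RNA of BMDMs, macrophages that were derived in culture from mouse bone marrow over 6 d in medium conditioned by L929 cells. The KO groups came from homozygous HSS9 KO mice, which carry a germline deletion upstream of Tnf that the study assigns to an enhancer, and the WT groups from mice without it. The LPS groups were stimulated with bacterial lipopolysaccharide for 6 hr and the untreated (UT) groups were given PBS. This gave 4 groups of 3 libraries, named by genotype and treatment (WT or KO, UT or LPS). The labels call the WT mice littermates while the methods of the study describe purchased C57BL/6 mice, so background differences between the genotypes cannot be told apart from the deletion. The study used male mice of 7 to 10 weeks. Whether each library is a separate mouse is not stated, so the p-values measure the spread between these libraries, which may be technical.

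Immunity-related GTPases are large GTP-binding proteins that mouse cells make in response to interferons and that restrict intracellular parasites and bacteria. The Irgm1, Irgm2 and Igtp (Irgm3) proteins carry a GMS sequence in their P-loop, sit on the membranes of the cell's own organelles and act as regulators. Iigp1 (Irga6), Ifi47 (Irgd), Tgtp1 and Tgtp2 (Irgb6) carry the usual GKS sequence, are held inactive by the regulators and are loaded, with guanylate-binding proteins and the ATG8 conjugation machinery of autophagy, onto the vacuoles that enclose pathogens. In macrophages LPS induces type I interferon, which acts on interferon-stimulated response elements (ISRE), while interferon gamma acts on gamma-activated sites (GAS).

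The promoter sequences are shown because the members rose together after LPS and both of these elements are short enough to be read by eye. The RefSeq promoter table for GRCm38.p6 held 6 of the 7 genes, each with 250 bases before and 50 bases after the transcription start. An ISRE core, GAAANNGAAA on either strand, was found in 5 of the 6 and in 3.44% of 32851 promoters of the same length. A GAS core, TTCNNNGAA on either strand, was found in 4 of the 6 and in 8.30% of all promoters. Irgm2, Igtp, Tgtp1 and Tgtp2 held both, against 0.454% of all promoters, and in these 4 the GAS core lay upstream of the ISRE core with 2 bases between them. The Irgm2 and Igtp stretches are near copies of each other around these cores, as are those of Tgtp1 and Tgtp2. The 4 are therefore not independent matches. Irgm1 held 2 overlapping ISRE cores and no GAS core, and Ifi47 held neither. The 120 bases before each start are printed 5′ to 3′ on the gene's own strand, with GAS and ISRE cores in capitals.
Irgm1, chr11:48871421-48871540, minus strand: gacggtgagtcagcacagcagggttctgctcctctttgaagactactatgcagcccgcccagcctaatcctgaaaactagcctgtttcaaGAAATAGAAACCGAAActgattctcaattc
Irgm2, chr11:58214857-58214976, plus strand: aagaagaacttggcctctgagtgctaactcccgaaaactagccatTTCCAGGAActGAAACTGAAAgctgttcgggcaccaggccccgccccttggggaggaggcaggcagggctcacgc
Igtp, chr11:58199436-58199555, plus strand: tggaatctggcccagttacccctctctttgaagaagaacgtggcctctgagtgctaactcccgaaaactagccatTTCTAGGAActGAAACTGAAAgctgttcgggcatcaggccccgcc
Ifi47, chr11:49076467-49076586, plus strand: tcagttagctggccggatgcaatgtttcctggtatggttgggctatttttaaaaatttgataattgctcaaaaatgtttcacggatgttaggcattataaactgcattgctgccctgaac
Tgtp1, chr11:48992247-48992366, minus strand: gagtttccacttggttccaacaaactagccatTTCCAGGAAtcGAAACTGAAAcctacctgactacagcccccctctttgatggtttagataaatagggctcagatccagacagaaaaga
Tgtp2, chr11:49064213-49064332, minus strand: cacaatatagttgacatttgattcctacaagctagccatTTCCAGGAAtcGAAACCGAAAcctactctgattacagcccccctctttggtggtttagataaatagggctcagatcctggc
A match describes the letters in this window and is not a measured binding site.

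In the GENCODE annotation of GRCm38, 6 of the 7 genes lie on chromosome 11, in a pair of clusters. Irgm1 (chr11:48861968-48871683, minus strand), Tgtp1 (chr11:48985327-48994172, minus strand), Tgtp2 (chr11:49057194-49064206, minus strand) and Ifi47 (chr11:49076587-49096974, plus strand) form the first. Igtp (chr11:58199556-58207591) and Irgm2 (chr11:58199618-58222782) form the second and overlap on the plus strand, where they share 162 exon bases, 8.01% of those of Igtp and 4.39% of those of Irgm2. Iigp1 is on chromosome 18 (chr18:60376027-60392634, plus strand). Ifi47 shares 111 exon bases, 4.49% of its own, with Olfr56 on the same strand. Olfr56 is annotated as an olfactory receptor gene and held 1.65 ± 0.333 CPM (counts scaled to the library total adjusted by the trimmed mean of M-values, TMM; SD, n = 3) in WT UT and 74.6 ± 5.68 in WT LPS, and how the counting divided its reads from those of Ifi47 is not stated. Tgtp1 shares 223 exon bases with Gm12185, and Gm12188, on the strand opposite to Ifi47, held 32 counts over all 12 libraries. Tgtp1 and Tgtp2 are close copies: 70.1% of the read-length windows of Tgtp1 transcripts occur exactly in Tgtp2, and 76.6% of those of Tgtp2 occur in Tgtp1. How the counting treated reads that match both is not given in the sources used here, so the split between these copies is uncertain. No window of Irgm1 or Iigp1 occurred in another gene.

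Library totals ranged from 26154533 to 36423921 counts. Replicates of a group differed by more than sampling noise, with a chi-square per degree of freedom of 3.73 to 42.2, so none was counted as a duplicate. The 8 macrophage markers summed to between 27940 and 34417 CPM per library, against 0.410 to 3.79 CPM for 10 T and NK cell markers, and both sums were higher in KO than in WT at each treatment without overlap. Tnf, the gene downstream of the deletion, was measured at 15.3 ± 0.757 CPM in WT UT and 9.71 ± 0.727 in KO UT, and at 890 ± 57.4 in WT LPS and 432 ± 15.2 in KO LPS (SD, n = 3). The log2 fold change of Tnf in KO LPS against WT LPS was -1.04 ± 0.06 (SE; edgeR quasi-likelihood test, adjusted p = 2.76e-10). Small structured RNAs (such as snRNA, snoRNA, rRNA and misc_RNA genes) took 6.64% to 7.98% of counts in KO UT, 3.00% to 3.25% in WT UT, 4.04% to 6.89% in WT LPS and 3.23% to 3.43% in KO LPS.

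Regulators and effectors both rose after LPS in each genotype. Values are given in CPM scaled by TMM, and a gene is called where the adjusted p is below 0.05 and the log2 fold change exceeds 1 in size. Tgtp1 passed the filter on low counts through its LPS groups, so it is left out of the counts and medians for LPS against UT. In WT, 6 of the 6 other genes were called higher, against 19.1% of all genes tested, with a median log2 fold change of 3.98 beside 0.05 over all genes. In KO the same 6 were called higher, against 17.7%, with a median of 4.61 beside -0.06. Called lower were 18.7% of genes in WT and 19.3% in KO. The LPS libraries lay above the UT libraries without overlap for these 6 genes in each genotype, as they did for 38.5% of genes in WT and 36.6% in KO. The 3 regulators had a median log2 fold change of 2.52 in WT and 3.13 in KO, and the 3 effectors other than Tgtp1 had 5.04 and 6.05. The values of single genes crossed between these sets, Igtp having risen by 4.03 and Ifi47 by 3.94 in WT.

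Irgm1, the regulator whose loss makes mice susceptible to many intracellular bacteria, was measured at 125, 132 and 131 CPM in WT UT and 84.5, 83.1 and 89.2 in KO UT. After LPS it was at 791, 755 and 680 in WT and 720, 735 and 802 in KO. The KO UT libraries were all below the WT UT libraries, while the LPS libraries of the genotypes overlapped. Its log2 fold change after LPS was 2.52 ± 0.06 (SE) in WT and 3.13 ± 0.07 in KO, a 5.74-fold and an 8.78-fold rise (edgeR, adjusted p = 3.31e-19 and 1.17e-20).

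Irgm2, a regulator that also restrains the caspase-11 response to cytosolic LPS, was at 41.0, 46.8 and 43.4 CPM in WT UT and at 23.5, 26.4 and 24.7 in KO UT. In WT LPS it was at 234, 194 and 197 and in KO LPS at 206, 206 and 222. The order was that of Irgm1, with separate UT groups and overlapping LPS groups. It rose 4.77-fold in WT and 8.50-fold in KO, log2 fold changes of 2.25 ± 0.07 and 3.09 ± 0.08, the smallest among these genes in each genotype.

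Igtp, the regulator found mainly on the endoplasmic reticulum, was at 32.4, 33.3 and 32.0 CPM in WT UT and 23.2, 23.2 and 22.5 in KO UT. Its LPS values were 562, 534 and 500 in WT and 530, 569 and 574 in KO. It rose further than the other regulators, by 4.03 ± 0.06 in WT and 4.60 ± 0.07 in KO on the log2 scale.

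Iigp1, an effector that loads onto the vacuole of Toxoplasma, was low without stimulation, at 5.12, 4.92 and 4.91 CPM in WT UT and 2.92, 2.73 and 2.15 in KO UT. After LPS it was at 277, 252 and 225 in WT and 246, 228 and 241 in KO. The rise was 50.5-fold in WT and 92.1-fold in KO, log2 fold changes of 5.66 ± 0.09 and 6.53 ± 0.10.

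Ifi47, an effector of the Irgd group, was at 74.0, 73.3 and 77.9 CPM in WT UT, at 48.1, 46.1 and 51.1 in KO UT, at 1220, 1181 and 1046 in WT LPS and at 1184, 1213 and 1171 in KO LPS. It rose 15.3-fold in WT and 24.5-fold in KO, log2 fold changes of 3.94 ± 0.07 and 4.62 ± 0.07.

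Tgtp2, an Irgb6 effector, was at 8.84, 8.56 and 6.83 CPM in WT UT and 3.67, 4.08 and 4.05 in KO UT, and at 265, 277 and 255 in WT LPS and 252, 260 and 269 in KO LPS. The rise was 33.0-fold in WT and 66.0-fold in KO, log2 fold changes of 5.04 ± 0.08 and 6.05 ± 0.09. Its copy Tgtp1 held 4, 2 and 8 counts in WT UT and 6, 0 and 9 in KO UT, near the 3 counts that a value of 0 allows. In WT LPS Tgtp1 held 191, 180 and 171 counts, and KO LPS libraries had 148, 166 and 182. It passed the filter through the LPS groups, so its log2 fold changes of 6.17 ± 0.33 and 5.45 ± 0.34 describe a choice already made by the filter.

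**Figure D1:**
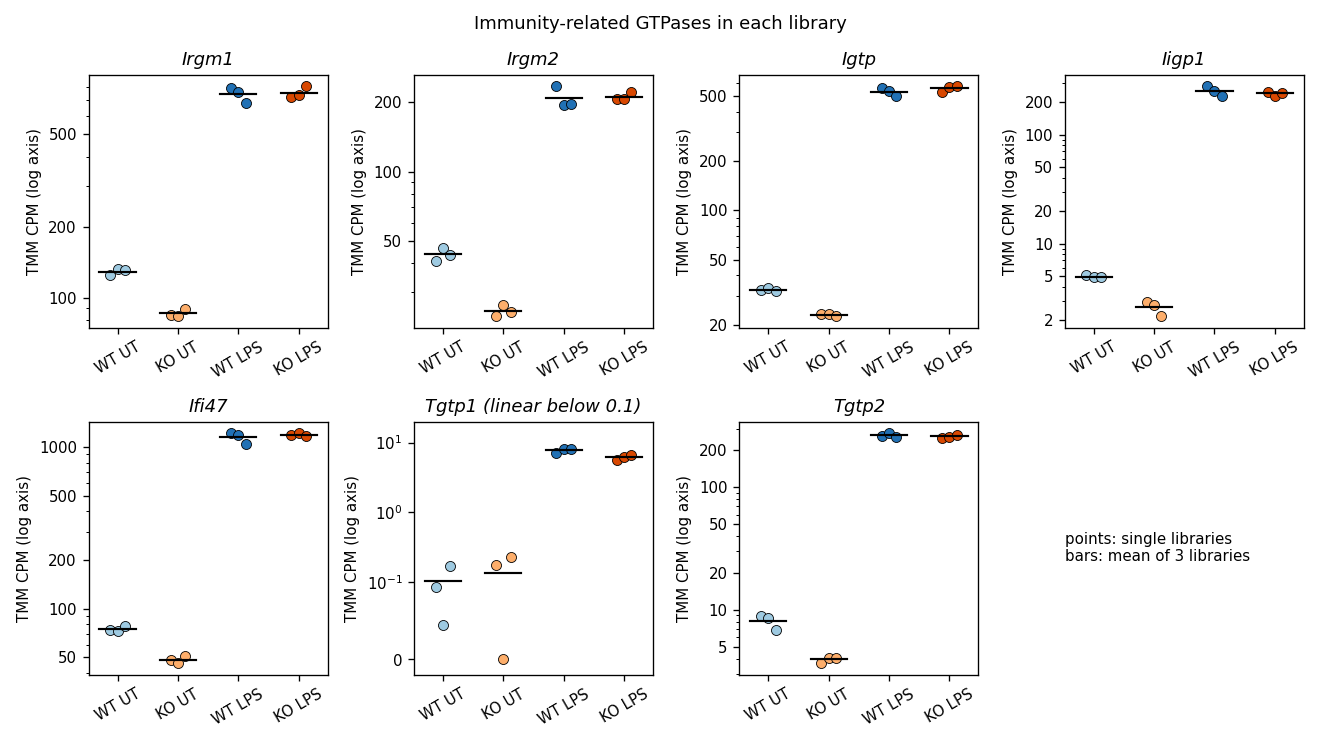
TMM-scaled CPM of each gene (log axes, linear below 0.1 for Tgtp1) in each of the 12 libraries, with the mean of each group as a bar. KO UT points lie below all WT UT points for 6 genes, while the LPS groups overlap for all but Tgtp1.

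**Figure D2:**
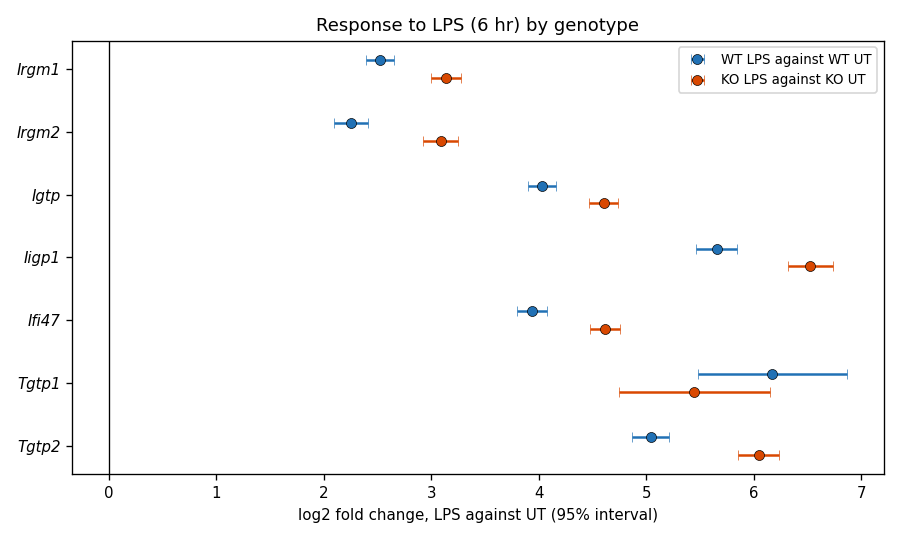
Log2 fold change of LPS against UT with its 95% interval for each gene, in WT and in KO. Leaving out Tgtp1, which the filter kept through its LPS groups, rises run from 2.25 (Irgm2) to 5.66 (Iigp1) in WT and from 3.09 (Irgm2) to 6.53 (Iigp1) in KO.

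In the absence of LPS, KO macrophages held less of 6 of the 7 transcripts. The shortfall ran from 1.42-fold for Igtp to 2.05-fold for Tgtp2, and it covered regulators and effectors alike. Adjusted p was below 0.05 and the change negative for 6 of 7, against 9.69% of all genes tested, and the KO UT libraries were all below the WT UT libraries for the same 6, against 19.1% of genes. Only Tgtp2 also passed the fold threshold, 1 of 7 against 0.799% of genes. The median log2 fold change was -0.63 beside 0.00 over all genes, -0.59 for the regulators and -0.79 for the effectors. Without Tgtp1, which held 0 to 9 counts in a UT library, it was -0.72 for the other 6 genes and -0.95 for the other effectors. In bulk RNA, fewer cells that express a gene and less of its RNA per cell cannot be told apart.

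Among the regulators, the log2 fold change of KO UT against WT UT was -0.59 ± 0.06 (SE) for Irgm1, with a 95% interval of -0.72 to -0.47 (edgeR, adjusted p = 5.83e-07). Irgm2 differed by -0.81 ± 0.08, with an interval of -0.97 to -0.66 (edgeR, adjusted p = 1.49e-07). Igtp differed by -0.50 ± 0.06, with an interval of -0.63 to -0.38 (edgeR, adjusted p = 3.19e-06). The intervals of the adjacent genes Irgm2 and Igtp did not overlap each other.

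Of the effectors, Tgtp2 differed by -1.03 ± 0.10 (edgeR, adjusted p = 1.60e-07), with an interval of -1.24 to -0.83. It fell under the fold threshold without KO UT replicate 1 (-0.99), without WT UT replicate 1 (-0.96) and without WT UT replicate 2 (-0.99). Iigp1 differed by -0.95 ± 0.12 (edgeR, adjusted p = 5.05e-06) and Ifi47 by -0.63 ± 0.06 (edgeR, adjusted p = 2.10e-07). For Tgtp1 the difference was 0.40 ± 0.63, with an interval of -0.91 to 1.72 (edgeR, adjusted p = 0.702), a range that a few counts per library cannot narrow. With Tgtp1 and Tgtp2 counted as 1 gene the log2 fold change was -1.003.

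The small structured RNA share moved with this comparison, being higher in every KO UT library than in every WT UT library. Within a group it varied most in WT LPS (4.04% to 6.89%) and least in WT UT and KO LPS. The slope of a covariate fit therefore rests mainly on WT LPS and is carried over a UT gap that cannot be told apart from genotype. This limit holds for each fit with that covariate. With that share as a covariate the 6 differences stayed negative, at -0.25 for Irgm1, -0.47 for Irgm2, -0.30 for Igtp, -0.57 for Iigp1, -0.29 for Ifi47 and -0.95 for Tgtp2, and 3 of the 7 genes had an adjusted p below 0.05 (edgeR; 0.0409 for Irgm2, 0.0367 for Iigp1 and 0.000439 for Tgtp2). Neutrophil markers moved with the UT comparison too: 8 markers summed to 18.6 to 20.0 CPM in WT UT and 41.2 to 46.9 CPM in KO UT. Of the 6 tested, 5 were called higher in KO UT. At an adjusted p below 0.05 at any fold, 14.1% of all genes were higher there. Ly6g, a defining marker, was at 0 in all libraries. After LPS the neutrophil sums were 50.4 to 79.4 CPM in WT and 67.2 to 76.7 in KO. Stromal markers differed as well: 6 markers summed to 3.77 to 4.49 CPM in WT UT, 4.11 to 5.67 in KO UT, 2.07 to 4.29 in WT LPS and 7.13 to 8.49 in KO LPS. Of the 5 tested, 2 were called higher in KO UT against WT UT. In KO LPS against WT LPS 4 were called higher, where 1.25% of all genes were called in either direction. Lum was at 0 in the UT libraries. T and NK cell markers summed to 2.03 to 2.79 CPM in WT UT, 2.86 to 3.79 in KO UT, 0.410 to 0.584 in WT LPS and 0.732 to 1.24 in KO LPS. Of the 10, 2 were tested and neither was called in a genotype contrast, and Gzma was at 0 in the UT libraries. The macrophage sums were 28908 to 29983 CPM in WT UT, 33310 to 34417 in KO UT, 27940 to 29482 in WT LPS and 30233 to 32099 in KO LPS, with 0 of 8 called in a genotype contrast. The part of these cells in the GTPase results was not tested.

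After LPS the difference between the genotypes was not detected for any of the 7 genes. None of the 7 was called in KO LPS against WT LPS, where 1.25% of all genes were, and none had an adjusted p below 0.05 at any fold, where 14.3% of genes did. By edgeR 0 of 7 had an unadjusted p below 0.05, and DESeq2 also gave 0 at an adjusted p below 0.05. The log2 fold changes were 0.02 for Irgm1, 0.02 for Irgm2, 0.07 for Igtp, -0.08 for Iigp1, 0.05 for Ifi47 and -0.03 for Tgtp2. Their 95% intervals reached from -0.22 for Iigp1 to 0.18 for Igtp. In this fit a difference of the size seen without LPS lies outside the interval of each of these 6. Tgtp1 was lower in every KO LPS library than in every WT LPS library, as were 15.0% of genes, with a log2 fold change of -0.32 and an interval of -0.75 to 0.11 (edgeR, adjusted p = 0.327). With the small structured RNA share as a covariate, Iigp1 was lower in KO LPS, at -0.25 (edgeR, adjusted p = 0.0362). In that fit Irgm1 was at -0.145, Irgm2 at -0.141, Igtp at -0.026, Ifi47 at -0.112 and Tgtp2 at -0.072, none with an adjusted p below 0.05. The UT differences of these genes were smaller in that fit too, so the comparison of sizes above is of the main fit alone.

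**Figure D3:**
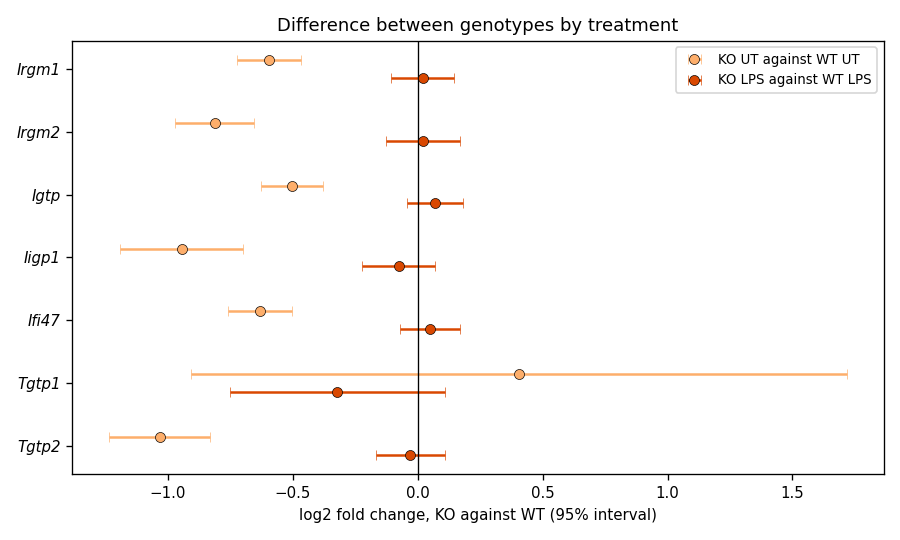
Log2 fold change of KO against WT with its 95% interval for each gene, without LPS and after LPS. For 6 genes the UT interval lies wholly below 0, down to -1.24 for Tgtp2, and the LPS interval spans 0.

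The test of the difference between the responses is not separate evidence. It equals the KO against WT difference after LPS minus that without LPS. The interaction of genotype and LPS, that is the log2 fold change after LPS in KO minus that in WT, was positive with an adjusted p below 0.05 for 6 of 7 genes, against 7.32% of all genes, and 1 of 7, Tgtp2, was called higher, against 0.522%. It was 1.00 ± 0.12 for Tgtp2 (edgeR, adjusted p = 1.07e-05), 0.87 ± 0.14 for Iigp1 (0.000194) and 0.83 ± 0.10 for Irgm2 (1.82e-05). It was 0.68 ± 0.08 for Ifi47 (1.65e-05), 0.61 ± 0.09 for Irgm1 (7.27e-05) and 0.57 ± 0.08 for Igtp (7.83e-05). For these 6 genes KO macrophages started lower, and after LPS no difference from WT was detected. The interaction of Tgtp2 was below 1 in fits that left out KO LPS replicate 3, KO UT replicate 1, WT LPS replicate 1 or 3, or WT UT replicate 1 or 2, the lowest being 0.93. For Tgtp1 it was -0.73 ± 0.67 (edgeR, adjusted p = 0.516). With the small structured RNA share as a covariate, the interaction was 0.10 for Irgm1, 0.33 for Irgm2, 0.28 for Igtp, 0.31 for Iigp1, 0.18 for Ifi47 and 0.88 for Tgtp2. Of these, Tgtp2 alone kept an adjusted p below 0.05 (edgeR, 0.0477).

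Per kb of exon, the order of the genes was the same in both genotypes and changed with LPS. In WT UT, Ifi47 led at 30.4 ± 1.01 CPM per kb (SD, n = 3), followed by Irgm1 at 22.3 ± 0.679, Igtp at 16.1 ± 0.336, Irgm2 at 11.8 ± 0.794, Tgtp2 at 2.75 ± 0.372, Iigp1 at 0.856 ± 0.0205 and Tgtp1 at 0.0320 ± 0.0198. In KO UT the same order ran from 19.6 ± 1.01 CPM per kb for Ifi47 to 0.447 ± 0.0690 for Iigp1 and 0.0417 ± 0.0371 for Tgtp1. In WT LPS, Ifi47 led at 465 ± 36.9, followed by Igtp at 263 ± 15.4, Irgm1 at 128 ± 9.76, Tgtp2 at 90.5 ± 3.73, Irgm2 at 56.5 ± 6.09, Iigp1 at 43.2 ± 4.45 and Tgtp1 at 2.42 ± 0.172. LPS therefore carried Igtp past Irgm1 and Tgtp2 past Irgm2. In each of the 4 groups, the libraries of neighbouring genes in the order did not overlap. These levels rest on the annotated exon length, and those of Tgtp1 and Tgtp2 on the split of shared reads.

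The makeup of the family does not depend on scaling between libraries. The 7 genes summed to 84.2 ± 1.53 CPM per kb in WT UT, 54.2 ± 1.20 in KO UT, 1048 ± 72.4 in WT LPS and 1075 ± 21.6 in KO LPS. The 3 regulators made up 59.6% ± 1.07 of the sum in WT UT and 60.5% ± 1.03 in KO UT, and 42.7% ± 0.628 in WT LPS and 43.0% ± 1.08 in KO LPS. The regulators thus held the larger share without LPS and the effectors the larger share after it, in every library. Irgm1 went from 26.4% in WT UT to 12.2% in WT LPS and Ifi47 from 36.1% to 44.3%. Between the UT groups, Tgtp2 made up 3.27% ± 0.472 in WT and 2.47% ± 0.135 in KO, and Irgm2 14.1% ± 0.718 and 12.4% ± 0.827. Igtp made up 19.1% ± 0.421 in WT UT and 20.9% ± 0.846 in KO UT. Irgm1 was higher in KO UT as well and Iigp1 lower, so 5 of the 7 shares did not overlap between the UT groups, 2 of them higher in KO and 3 lower. Irgm1 separated narrowly, with at most 26.70% in WT UT and at least 26.76% in KO UT. The shares of a library sum to the whole, so they are not 7 separate observations. After LPS 1 of the 7 shares, that of Tgtp1, did not overlap. With 3 libraries against 3, an exact permutation test of a share could not go below a two-sided p of 0.1, and none was run.

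**Figure D4:**
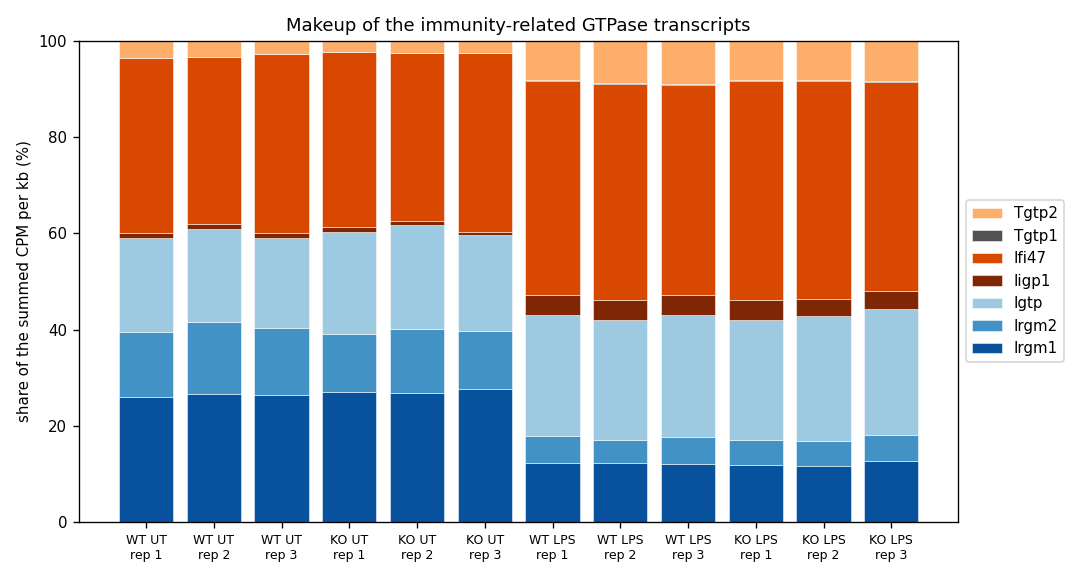
Share of each gene in the summed CPM per kb of the 7 genes, as stacked bars for each of the 12 libraries. The regulators (blue) fall from 59.6% in WT UT to 42.7% in WT LPS, and the genotypes are alike within 1 percentage point for that sum.

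Other genes of the pathway were read from 4 lists. Of 14 other listed immunity-related GTPase symbols, 11 were in the table and 9 were tested. Some of the 14 are alternative names of a listed gene, such as Irgb10 for Gm12250. In KO UT against WT UT, 7 of the 9 were lower at an adjusted p below 0.05 (edgeR), against 9.69% of all genes, and 0 higher. The median was -0.50, and 0 were called, as by DESeq2. After adding the small structured RNA share as a covariate, 0 of the 9 kept an adjusted p below 0.05 (edgeR), at a median of -0.15. In KO LPS against WT LPS, 0 of 9 differed by edgeR at an adjusted p below 0.05, with 1 at an unadjusted p below 0.05 and 0 by DESeq2. Among those with a mean of at least 5 CPM, the 3 with the largest LPS response in WT were Gm12250 (Irgb10), Gm4951 and F830016B08Rik. Gm12250 went from 25.3 to 26.5 CPM in WT UT to 245 ± 18.8 in WT LPS and from 18.0 ± 1.59 in KO UT to 262 ± 0.851 in KO LPS, and its log2 fold change in KO UT was -0.53 ± 0.07 (edgeR, adjusted p = 1.09e-05). Gm4951 differed between the UT groups by -0.57 ± 0.09 and F830016B08Rik by -0.67 ± 0.13 (edgeR, adjusted p = 8.82e-05 and 0.000775).

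Guanylate-binding proteins, the larger interferon-induced GTPases that act beside these proteins at pathogen vacuoles, were mostly lower in KO UT. Of 10 tested, 8 were lower in KO UT at an adjusted p below 0.05, against 9.69% of all genes, and 0 higher. The median was -0.78, and 6 had a positive interaction at that threshold, against 7.32% of genes. The small structured RNA share as a covariate left 2 with an adjusted p below 0.05 in KO UT, Gbp2 and Gbp3, and 0 in the interaction. After LPS 3 of 10 were lower in KO, against 6.54% of all genes, and 0 higher. These 3, named after their values were seen, were Gbp4, Gbp6 and Gbp9. Gbp6 lost that p without replicate 1 or 2 of KO LPS or of WT LPS (edgeR, adjusted p = 0.0563 to 0.0602), and Gbp9 did so without any 1 of the KO LPS libraries or replicate 1 or 2 of WT LPS (0.0545 to 0.0922) and with the replicate block (0.0542). The fit with the small structured RNA share gave 4 lower after LPS, these 3 and Gbp5, and 0 higher. By DESeq2, 4 were lower after LPS, with Gbp11 added, and 1, Gbp2, was higher. Gbp11 held 49, 38 and 57 counts in WT LPS and 28, 21 and 24 in KO LPS, a log2 fold change of -1.18 that was not called by edgeR (adjusted p = 0.0601) and was called by DESeq2 (adjusted p = 0.0156). Gbp6 was called in KO UT (log2 fold change -1.27 ± 0.25; edgeR, adjusted p = 0.000679), from 36, 27 and 34 counts in WT UT to 12, 9 and 11 in KO UT. Its interaction was 1.00 ± 0.26 (edgeR, adjusted p = 0.0112), and below 1 without KO LPS replicate 3, KO UT replicate 2 or 3, WT LPS replicate 3 or WT UT replicate 1, the lowest being 0.89. Neither call held with the small structured RNA share as a covariate, at -0.89 in KO UT and 0.45 in the interaction (edgeR, adjusted p = 0.0781 and 0.641).

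The list of interferon signalling genes was divided. Of 19 tested, 8 were lower in KO UT at an adjusted p below 0.05, against 9.69% of all genes. Higher were 3, against 14.1%, and the median was -0.16. With the small structured RNA share as a covariate, 3 were lower and 1 higher. After LPS 6 were higher in KO, against 7.78% of genes, and 3 lower, against 6.54%. With the covariate 3 were higher and 3 lower after LPS. Irf7, the factor that amplifies type I interferon production, was called in KO UT, at 162 ± 2.09 CPM in WT UT and 70.0 ± 0.622 in KO UT (log2 fold change -1.21 ± 0.06; edgeR, adjusted p = 3.31e-12), and its interaction of 1.15 ± 0.08 was called too (edgeR, adjusted p = 1.02e-08). Under that covariate the interaction fell under the fold threshold, at 0.90 (edgeR, adjusted p = 0.00329). In LPS it was at 909 ± 59.4 in WT and 871 ± 43.4 in KO. Irf1, a transcription factor induced by interferons, was lower in KO UT too, at -0.20 ± 0.05 (edgeR, adjusted p = 0.00699), and at -0.15 with that covariate (edgeR, adjusted p = 0.546).

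The interferon genes themselves were scarce. Ifnb1 held 2, 0 and 3 counts in WT UT and 0 in each KO UT library, at or under the 3 counts taken as the floor. In WT LPS it reached 44, 40 and 46 counts and in KO LPS 26, 23 and 24, a log2 fold change of -1.03 ± 0.38 that did not pass the threshold (edgeR, adjusted p = 0.0797). It was called by DESeq2 (adjusted p = 0.0311), with protein-coding genes alone (edgeR, adjusted p = 0.0479) and with the compared groups alone (edgeR, adjusted p = 0.0261). Ifng had 0 counts in all 12 libraries, which allows up to 0.0638 to 0.141 CPM depending on the library. These limits cover counting error only.

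The autophagy conjugation genes were in part higher in KO UT. Of 12 tested, 4 were higher in KO UT at an adjusted p below 0.05, against 14.1% of all genes, and 0 lower. The median was 0.10, and 6 had a negative interaction, against 9.50% of genes. By DESeq2, 7 had an adjusted p below 0.05 in KO UT, 4 higher and 3 lower (Atg12, Atg16l1 and Traf6). Adding the small structured RNA share as a covariate, 2 were higher (Atg3 and Atg5), and 0 passed in the interaction (edgeR). The 4 by edgeR, named after their values were seen, were Gabarap, Gabarapl1, Gabarapl2 and Map1lc3a, with log2 fold changes of 0.57 ± 0.07, 0.30 ± 0.05, 0.53 ± 0.06 and 0.60 ± 0.10, and none of the 4 kept an adjusted p below 0.05 with that covariate. Like them Map1lc3b encodes an ATG8 protein, and its difference was 0.05 (edgeR, adjusted p = 0.490). After LPS 1 was higher in KO, against 7.78% of genes, and 4 lower, against 6.54%, and with the covariate 1 was higher and 1 lower (Gabarap and Sqstm1, in that order). Of the 12, 0 were called by edgeR or DESeq2 in any genotype contrast. Among those with a mean of at least 5 CPM, the largest LPS responses in WT were those of Atg7 (-1.62 ± 0.07), Gabarapl1 (-1.33 ± 0.06) and Atg16l1 (1.28 ± 0.05), each called in WT.

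**Figure D5:**
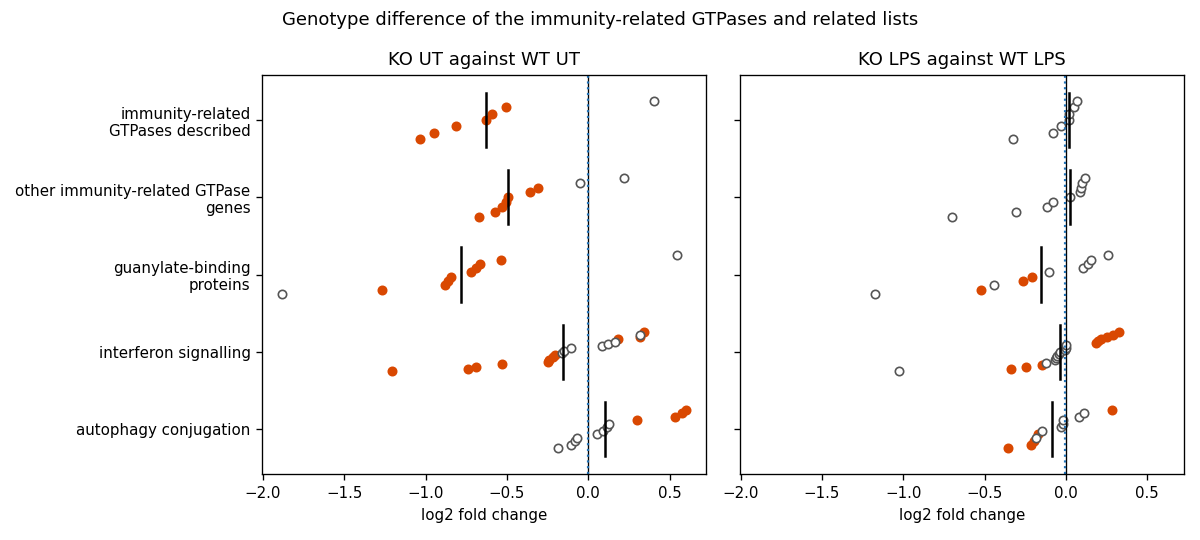
Log2 fold change of KO against WT for each tested gene, without LPS (left) and after LPS (right), with filled points at an adjusted p below 0.05, list medians as black bars and the median of all genes dotted. Ifnb1 is left out of the UT panel because KO UT had 0 counts. The UT medians are -0.63 for the 7 genes, -0.50 for other immunity-related GTPase genes and -0.78 for guanylate-binding proteins.

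Likeness of pattern was measured as the root mean square difference of log2 CPM, each gene centred on its own mean, over the 12 libraries and against the 9583 genes outside the 7 that had a mean of at least 5 CPM. Among the members themselves, Igtp and Ifi47 differed by 0.0779 and Irgm1 and Irgm2 by 0.131, and the genes named next are the nearest outside the 7. The 12 points fall into 4 groups of 3, so likeness mostly reflects the group means. Irgm1 was most like Trim30d (0.0622), Parp12 (0.0867) and Ddx58 (0.0882), the last of which encodes the RNA sensor RIG-I. Irgm2 was most like Stat2, BC147527 and Itgal. Igtp was nearest to Phf11d (0.0829), Cd274, which encodes PD-L1, and Atp10a, and Ifi47 to Ifi211 (0.128), Cd274 and Atp10a. For Iigp1 the nearest were Gbp3 (0.128), Mx1 and Rsad2, and for Tgtp2 Oasl1 (0.152), Cmpk2 and Ms4a4c. Tgtp1 had no near match: Plat, Olr1 and Vcam1 were closest, at 0.435 to 0.483. Among these 19 genes only Gbp3 was on the guanylate-binding list and only Stat2 on the interferon signalling list. The latter holds ligands, receptors, kinases, transcription factors and inhibitors, and no general list of interferon-induced genes was compared.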

How the data were processed

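The data were 12 RNA-seq libraries of BMDMs in 4 groups of 3, grouped by the genotype and treatment labels. The deposited table holds raw counts per gene. The authors prepared stranded total RNA libraries, sequenced paired ends, aligned them to GRCm38 with HISAT2 2.1.0 and counted them with featureCounts 2.0.0; the annotation release, strand setting and treatment of multi-mapping reads are not given in the sources used here. Identifiers without their version were matched to GENCODE (48144 of 48526). Genes with low counts were removed with filterByExpr (minimum count 10, minimum total 15). Counts were scaled by TMM and fitted over all 12 libraries with edgeR 4.0.16 (quasi-likelihood test, group means), with Benjamini-Hochberg adjustment over 15523 genes. SE and 95% intervals came from the same fit.

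The members and gene lists were chosen with earlier results of these data known. All 7 members were named. From each list, those called in a genotype contrast or the interaction were named, else the 3 with the largest WT response at a mean of at least 5 CPM, with Ifnb1, Ifng, Irf1 and Tnf always named, and the 3 genes most like each member. A further gene of the rule is not reported here. Alternatives were DESeq2 1.42.0, other scalings (RLE, upper quartile, TMM without the 10 most-counted genes), other filters (none, a mean of at least 1 CPM, protein-coding genes), a replicate block, the small structured RNA share, the compared groups alone, no fold minimum, leaving out each library, and Tgtp1 and Tgtp2 summed. Replicate numbers equal the batch number in the labels, so the fit with a replicate block pairs the libraries. The deviations of 18 same-numbered pairs correlated at r = -0.0631 to 0.0373, and with the block 6 of 7 members had an adjusted p below 0.05 in KO UT against WT UT. The fit was tested on simulated data.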

Additional observations from a re-analysis of the deposited data

Results flagged for a closer look

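The LPS response differed between the genotypes for 6 of the 7 genes by the interaction test (edgeR, adjusted p below 0.05). The response in KO minus that in WT was 0.61 for Irgm1, 0.83 for Irgm2, 0.57 for Igtp, 0.87 for Iigp1, 0.68 for Ifi47 and 1.00 for Tgtp2 on the log2 scale. Each is a larger rise in KO from a lower UT level. These values equal the KO against WT differences after LPS minus those without LPS, so they largely restate the UT differences. With the small structured RNA share as a covariate, 1 of these 6, Tgtp2, kept an adjusted p below 0.05. Groups of 3 libraries were not tested for outliers.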

How the results depend on the processing

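All 7 genes, with Tgtp1 set by the filter, stayed called higher after LPS in both genotypes under each alternative run (6 of 6 with Tgtp1 and Tgtp2 summed). In KO UT against WT UT, the count of members called was 1, and it was 2 with DESeq2 and with RLE scaling (Iigp1 at -1.02 in each), 0 with the small structured RNA share as a covariate and 6 with no fold minimum; leaving out a library gave 0 to 1. Tgtp2 fell under the fold minimum without KO UT replicate 1 (-0.99), without WT UT replicate 1 (-0.96) and without WT UT replicate 2 (-0.99), and without KO UT replicate 1 Iigp1 was called at -1.04. The 6 members with an adjusted p below 0.05 at any fold became 3 with the small RNA share and were 6 in each fit without a library. For the interaction, the count called was 0 with a mean CPM of at least 1, with protein-coding genes, with the small RNA share and with Tgtp1 and Tgtp2 summed, 6 with no fold minimum, and 0 to 1 without a library; at any fold 6 became 1 with the small RNA share. In KO LPS against WT LPS, 1 member, Iigp1, passed at any fold with the small RNA share. The cause of these changes was not tested.

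The signs that turned belonged to values near 0 or to Tgtp1. In KO LPS against WT LPS, Irgm1 was -0.0037 with upper-quartile scaling, -0.016 with protein-coding genes and -0.15 with the small RNA share, and Irgm2 -0.0016, -0.015 and -0.14; Igtp was -0.026 and Ifi47 -0.11 with that share. Without a library, Irgm1 ranged from -0.039 to 0.068, Irgm2 from -0.027 to 0.11, Ifi47 from -0.013 to 0.096 and Tgtp2 from -0.058 to 0.0029. Tgtp1 in KO UT ranged from -0.23 (without KO UT replicate 3) to 0.98, and summed with Tgtp2 it was -1.003, with an interaction of 0.96.

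Called list genes changed as follows. Guanylate-binding proteins in KO LPS against WT LPS went from 0 to 1 with DESeq2, with no filter and with the compared groups alone, and were 0 to 1 without a library (1 without WT UT replicate 1 or 2), in each case Gbp11. In KO UT they went from 1 to 0 with the small RNA share and were 1 to 3 without a library (3 without KO UT replicate 3). In the interaction they went from 1 to 3 with DESeq2 and RLE, 2 with no filter, 0 with a mean CPM of at least 1, with protein-coding genes and with the small RNA share, and were 0 to 3 without a library (0 without KO UT replicate 2 or WT LPS replicate 3, 2 without KO LPS replicate 2 and 3 without WT LPS replicate 1). Interferon signalling genes in KO LPS went from 0 to 1, Ifnb1, with DESeq2, with protein-coding genes and with the compared groups alone; in KO UT they were 1 to 2 without a library (2 without WT UT replicate 2), and in the interaction 0 with the small RNA share, where Irf7 was at 0.90. Upper-quartile scaling moved the median of all genes to -0.14 in WT and -0.24 in KO for LPS against UT. The replicate block changed no call of a member: 1 was called in KO UT against WT UT and 1 in the interaction. Without a library, 2 remained in its group, assumed to vary like the others. Depth limited Tgtp1 and Ifnb1 in UT.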
